A study of Mus musculus with 8 samples.

Results

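Mitochondrial ribosomal protein genes were taken as the rows of the deposited tables whose symbol begins with Mrpl or Mrps followed by a number, without the rows marked -ps as pseudogenes. The rule found 78 genes of 55401, of which 49 are named for the large subunit (Mrpl) and 29 for the small subunit (Mrps). Values by subunit follow these names throughout, although Mrps18a and Mrps30 encode proteins of the large subunit. All 78 had a TPM (a length-corrected share of the transcripts of a dish, scaled to a total of 1000000) between 12.8 and 325 in every dish, so none was lost to the filter on low values.

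The RNA came from AML12, a hepatocyte line established from the liver of a mouse transgenic for human TGF-alpha. In 4 dishes the cells were kept for 1 h under Opti-ELF-WMF, a pulsed weak magnetic field with pulses of 4 ms at frequencies stepping from 1 to 8 Hz and a peak of 100 mG. The 4 control dishes came from the same batch of cultured cells and were incubated for the same 1 h with the stimulator switched off, in another incubator of the same model. The exposure and the incubator cannot be told apart, and p-values measure the spread between dishes of a single cell line and batch. The labels name no other treatment, and both groups carry the transgene of the line.

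Mitochondria carry their own ribosome, which descends from that of bacteria and makes the few proteins that the mitochondrial genome encodes, all of them subunits of the respiratory chain and ATP synthase. Its ribosomal RNAs are transcribed inside the organelle, whereas every one of its proteins is encoded in the nucleus, made in the cytosol and imported. Some of these proteins are homologues of bacterial ribosomal proteins and the others were gained in mitochondria. Hepatocytes are rich in mitochondria and depend on this ribosome for their respiratory chain.

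The dishes resembled each other closely. Over the 12122 genes that passed the filter on low values, Pearson's r between the log2 values of any pair of dishes was 0.991 to 0.994. This held within a condition as well as between conditions. Sequencing depth is unknown, because TPM was scaled to the same total in every dish. The hepatocyte markers Hnf4a (187 TPM in control dishes), Ttr (358), Trf (823), Krt8 and Krt18 were present, Alb was at 55.1 TPM, and Cps1 and Apoa2 stayed under 1 TPM in every dish. Summed over the 13 hepatocyte markers, TPM was 5695 to 5957 in control and 6047 to 6274 in exposed dishes, which did not overlap. Krt8 and Krt18 made up most of that sum, Alb (-0.15), Apoa1 (-0.22) and Ttr (-0.04) were on the negative side without passing an adjusted p of 0.05, and the mean log2(TPM + 1) of the 11 tested markers, 6.87 to 6.97 and 6.90 to 6.97, overlapped. Whether this bears on the members was not tested. Of the cholangiocyte markers, Krt19 (1153 TPM), Krt7 (70.4) and Sox9 (30.8) were present, and Epcam stayed under 1 TPM in every dish. The 4 markers of that list summed to 1203 to 1291 TPM in control and 1218 to 1339 TPM in exposed dishes. Markers of endothelial cells summed to at most 0.09 TPM in any dish, those of fibroblasts and stellate cells to at most 1.96, and those of macrophages and blood to at most 2.31.

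The members differed 21.6-fold in abundance, from 13.8 TPM for Mrpl55 to 297 TPM for Mrpl52 as means of the control dishes. Their median was 72.6 TPM, against 21.9 TPM over all 12122 genes tested and 1580 TPM over 80 cytosolic ribosomal protein genes. The Mrpl genes had a median of 82.3 TPM and the Mrps genes 71.2 TPM. Genes with a bacterial homologue (46 members, median 72.6 TPM) and mitochondria-specific genes (32 members, 73.9 TPM) lay at nearly the same level. In the assembled ribosome nearly all of these proteins are present as a single copy, and the stalk protein of Mrpl12 is the known exception.

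Over all 8 dishes, the most abundant large-subunit genes were Mrpl52, which encodes a mitochondria-specific protein, with 265 to 325 TPM in control dishes, and Mrpl17, with 230 to 247 TPM. The least abundant were Mrpl1 (20.5 ± 1.04 TPM, SD, n = 4) and Mrpl55 (13.8 ± 0.73). Among the Mrps genes, Mrps21 (225 ± 10.9 TPM) and Mrps23 (122 ± 6.89) led. Mrps31 (22.6 ± 1.40) and Mrps30 (15.5 ± 1.00), which encodes a large-subunit protein, came last. Neighbours in this order often differed by less than their spread: Mrpl17 and Mrpl33 (242 ± 11.4 TPM) overlapped between dishes, while Mrpl55 and Mrpl1 did not. The coefficient of variation over the control dishes had a median of 4.51%, and ran from 1.29% for Mrpl49 to 13.3% for Mrpl47.

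**Figure D1:**
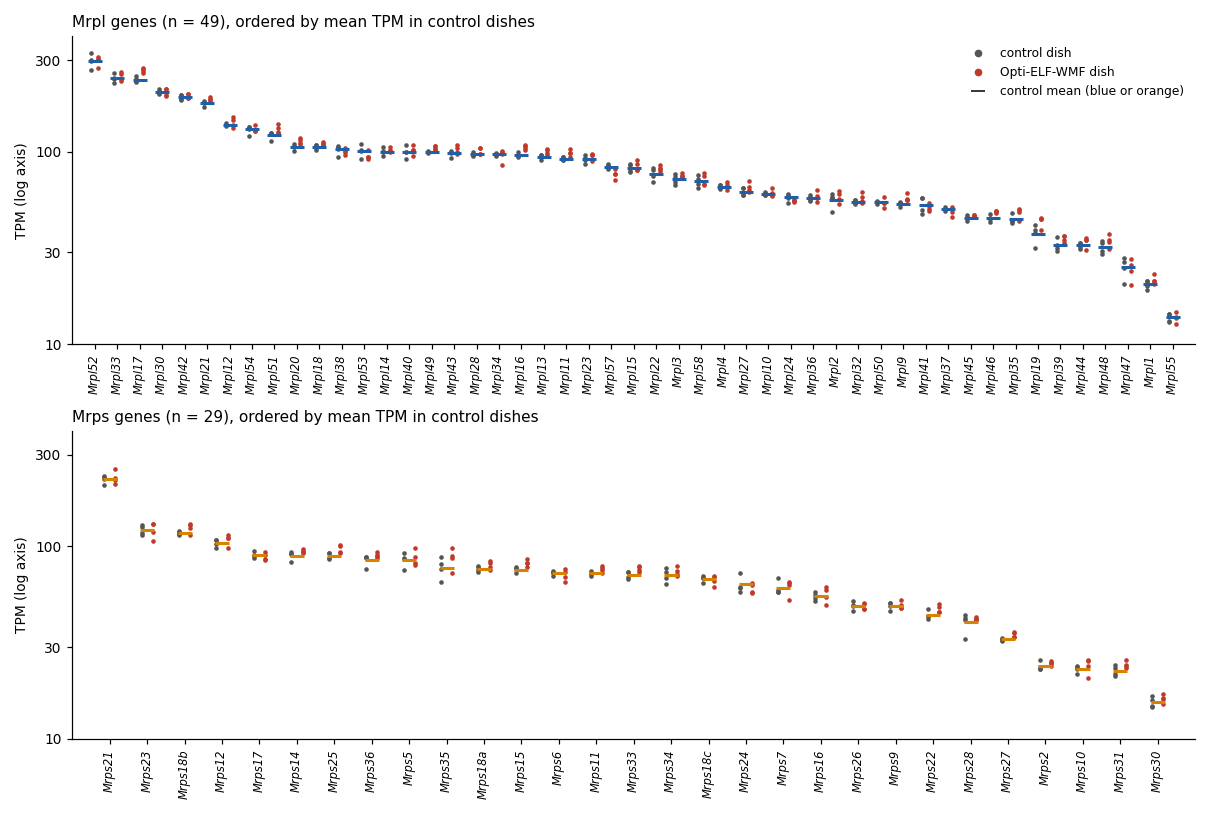
TPM of the 49 Mrpl genes (top) and 29 Mrps genes (bottom) on a log axis, with a point for each control (grey) and Opti-ELF-WMF (red) dish and a bar at the control mean. The order of the genes spans 21.6-fold from Mrpl52 to Mrpl55, and within a gene the dishes of both groups lie close together.

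The members were spread over 17 chromosomes, with 11 on chromosome 11 and 8 on chromosome 17. Their coding sequences were short, with a median of 582 bases (261 to 1326) against 1377 bases for the 10940 tested protein-coding genes in GENCODE M21, and the median number of exons was 5 against 9. Across the 78 members, which are not independent replicates, shorter coding sequences went with higher TPM (Spearman's rho = -0.47), as a description.

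Promoters of genes for mitochondrial proteins are known for binding sites of NRF1, of ETS-family factors (NRF2/GABP among them) and of YY1. RefSeq promoters (GRCm38.p6, 250 bases before to 50 after the start) were found for 69 of the 78 members, as 75 entries. The letters GCGCATGC, the core of the NRF1 site, stood on either strand in 10.7% of these entries and in 2.71% of the 32851 promoters in the table. CCGGAAGT, an ETS site, stood in 16.0% against 3.89%, and AAGATGGCG, a YY1 site, in 10.7% against 1.40%. At least 1 of the 3 motifs was present for 26 members, 34.7% of the entries against 7.57% of all promoters. Such a match is a description of letters and was not tied to binding here. 3 of the members whose dishes did not overlap between the groups (described further on) held a motif, and their 250 bases before the start are printed 5′ to 3′ on the gene's strand to show where it lies. Capitals mark the NRF1 letters in Mrpl17 and Mrpl9 and the ETS letters, on the opposite strand, in Mrps27.
Mrpl17, chr7:105811088-105811337, minus strand: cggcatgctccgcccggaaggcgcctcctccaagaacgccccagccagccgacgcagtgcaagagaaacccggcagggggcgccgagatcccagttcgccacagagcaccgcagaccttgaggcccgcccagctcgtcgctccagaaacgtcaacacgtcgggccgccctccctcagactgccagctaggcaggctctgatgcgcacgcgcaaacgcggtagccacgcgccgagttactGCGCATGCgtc
Mrpl9, chr3:94443086-94443335, plus strand: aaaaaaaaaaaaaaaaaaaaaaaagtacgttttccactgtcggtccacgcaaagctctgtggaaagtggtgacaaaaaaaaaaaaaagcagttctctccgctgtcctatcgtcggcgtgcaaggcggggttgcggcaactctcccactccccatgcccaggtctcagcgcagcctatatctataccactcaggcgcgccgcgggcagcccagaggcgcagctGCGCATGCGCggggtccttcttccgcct
Mrps27, chr13:99344536-99344785, plus strand: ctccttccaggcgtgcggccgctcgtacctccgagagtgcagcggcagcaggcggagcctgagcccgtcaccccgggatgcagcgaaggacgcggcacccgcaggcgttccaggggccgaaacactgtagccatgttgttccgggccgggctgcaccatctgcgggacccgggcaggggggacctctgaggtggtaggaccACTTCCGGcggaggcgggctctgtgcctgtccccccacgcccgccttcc
In Mrpl17 the match begins 11 bases before the start. In Mrpl9 the letters read on both strands and overlap, beginning 28 and 26 bases before the start. In Mrps27 the ETS letters begin 49 bases before the start, and the YY1 letters begin 14 bases after it, outside the printed stretch.

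The comparison of exposed and control dishes asked which transcripts differ after 1 h of Opti-ELF-WMF. No member passed an adjusted p of 0.05 in limma, and none of the 12122 genes did (0% of genes called). At an unadjusted p under 0.05, 14 members were higher and 1 was lower, that is 17.9% higher, beside 12.0% of all tested genes higher and 3.65% lower. Scales described below do not hold the TPM total fixed over all genes. On these the split was 9 higher and 2 lower (median of ratios), 5 and 3 (mitochondrial transcripts left out) or 3 and 3 (upper quartile). Of all genes, 6.79% were higher and 5.52% lower, 5.72% and 5.58%, or 4.85% and 6.61%, in the same order. The dishes of the groups did not overlap for 9 members, all higher in exposed dishes (11.5%), beside 8.01% of all genes higher and 1.86% lower. On the deposited TPM scale the members' shares of higher genes thus lay near or moderately above those of all genes. Their counts of lower genes, 1 and 0, lay below the shares of all genes. After upper-quartile scaling 3.85% of members were higher, beside 4.85% of all genes. In all, 62 of the 78 members had a positive difference (79.5%), against 63.7% of all tested genes. As bulk RNA, these values cannot tell fewer cells with a transcript from less of it per cell. The median member differed by 0.057 on the log2(TPM + 1) scale and the median tested gene by 0.026.

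**Figure D2:**
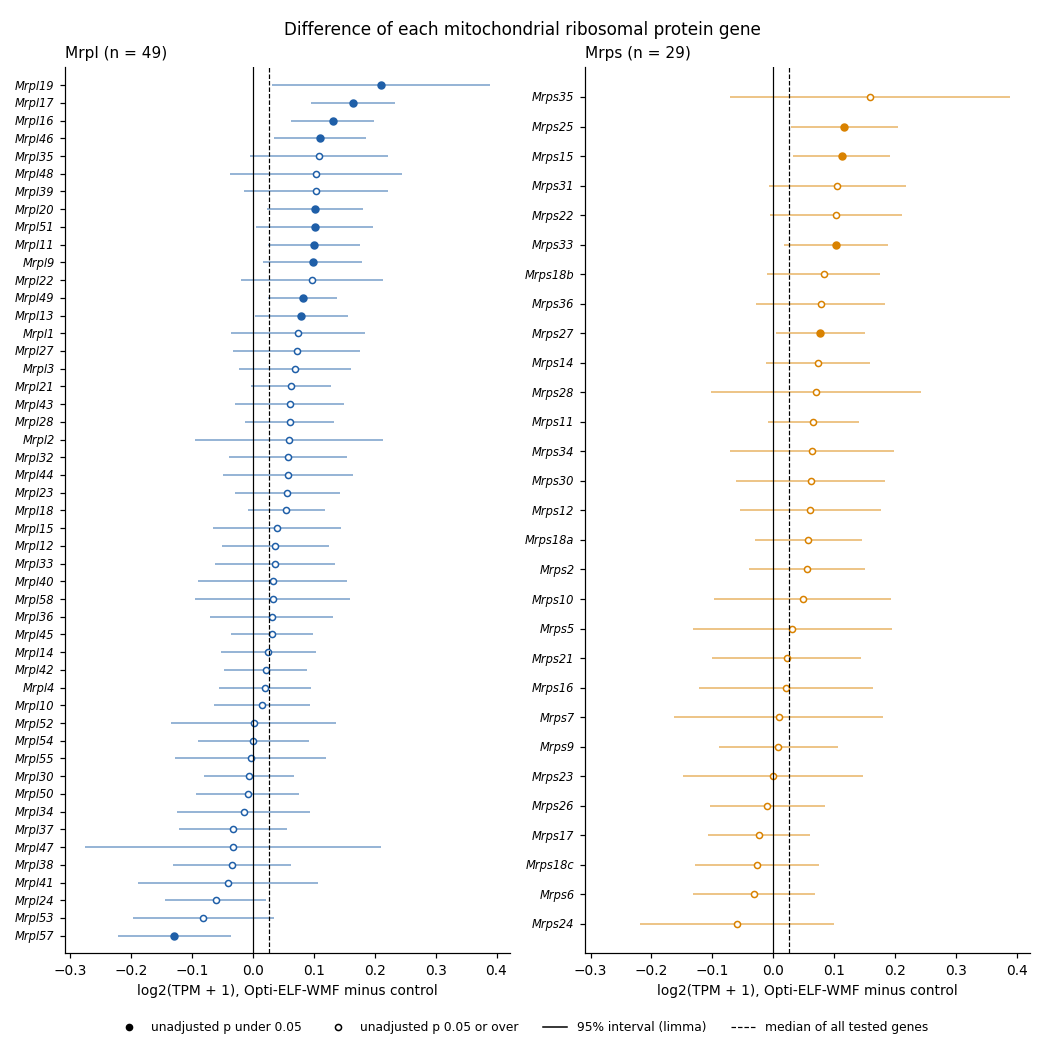
Difference in log2(TPM + 1), Opti-ELF-WMF minus control, for each Mrpl (left) and Mrps (right) gene with its 95% interval from limma. Filled points have an unadjusted p under 0.05 and the dashed line marks the median of all tested genes at 0.026. Mrpl17 and Mrpl16 lie clear of that line to the right, and Mrpl57 is the filled point on the left.

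In the large subunit, 38 of 49 genes had a positive difference, 10 with an unadjusted p under 0.05 (all genes 12.0%), and 1 of the 11 with a negative difference did. At that threshold and under the other scalings, 3 to 7 Mrpl genes were higher (6.12% to 14.3%, all genes 4.85% to 6.79%). Those lower numbered 2 or 3 (all genes 5.52% to 6.61%). The smallest p belonged to Mrpl17, the homologue of bacterial L17 (ENSMUSG00000030879, chr7:105803206-105811099, minus strand). Its TPM was 230, 233, 247 and 239 in control dishes and 274, 271, 263 and 256 in exposed dishes. Every exposed dish was above every control dish. The difference was 0.16 ± 0.03 (SE) on the log2(TPM + 1) scale, with an adjusted p of 0.122.

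Mrpl16, whose bacterial counterpart L16 lies near the site where tRNA is accepted (ENSMUSG00000024683, chr19:11770391-11774960, plus strand), had 96.9, 93.7, 94.96 and 99.9 TPM in control dishes. In exposed dishes it had 108, 104, 108 and 102 TPM. Here too the groups did not overlap, with a difference of 0.13 ± 0.03 and an adjusted p of 0.122. Of the 78 members, only Mrpl17 and Mrpl16 kept their dishes apart under each of the 4 scalings described below.

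Mrpl49 and Mrpl46, both mitochondria-specific, came next. Mrpl49 had 98.3, 101, 99.9 and 99.6 TPM in control dishes and 104, 108, 108 and 104 TPM in exposed dishes. The groups lay apart by a narrow margin, in the gene with the smallest spread between control dishes, and the difference was 0.08 ± 0.03 (adjusted p = 0.175). Mrpl46 had 47.6, 45.5, 43.2 and 44.8 TPM in control dishes and 48.3, 49.5, 48.7 and 49.0 TPM in exposed dishes, where the values were nearly equal. The difference was 0.11 ± 0.03 (adjusted p = 0.175).

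Mrpl11, homologue of the bacterial L11 at the base of the stalk that engages translation factors, had 90.3, 90.8, 93.9 and 93.6 TPM in control dishes and 99.3, 98.5, 104 and 93.8 TPM in exposed dishes. Exposed dish 4 lay level with the highest control dish, so the groups overlapped. The difference was 0.10 ± 0.03 (adjusted p = 0.202). Mrpl20, whose bacterial counterpart L20 is needed early in assembly of the large subunit, had 101, 108, 109.7 and 106 TPM in control dishes and 112, 119, 115 and 109.9 TPM in exposed dishes. The lowest exposed dish exceeded the highest control dish by a fraction of a TPM, and the difference was 0.10 ± 0.04 (adjusted p = 0.210).

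Mrpl9, homologue of the bacterial L9, had 54.7, 51.6, 54.3 and 54.4 TPM in control dishes and 56.8, 61.2, 56.3 and 56.1 TPM in exposed dishes. Its groups were apart, with exposed dish 2 above the rest (0.10 ± 0.04, adjusted p = 0.235). Mrpl51, a mitochondria-specific protein, had 126, 125, 114 and 124 TPM in control dishes and 139, 134, 126 and 127 TPM in exposed dishes. Here control dish 1 lay above exposed dish 3, and the difference was 0.10 ± 0.04 (adjusted p = 0.296). Mrpl13, homologue of the bacterial L13, had 96.3, 96.4, 90.2 and 95.4 TPM in control dishes and 103.9, 96.1, 102 and 98.3 TPM in exposed dishes. Exposed dish 2 lay among the controls (0.08 ± 0.03, adjusted p = 0.301).

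The largest difference of any member belonged to Mrpl19, homologue of the bacterial L19 at the subunit interface, with 39.3, 37.8, 31.5 and 41.6 TPM in control dishes and 44.6, 44.6, 45.2 and 39.3 TPM in exposed dishes. It is named here after its value was seen. The groups overlapped, control dish 3 was low, and the difference of 0.21 ± 0.08 had an adjusted p of 0.248.

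Mrpl57, which encodes the small mitochondria-specific protein mL63, was the only member lower at an unadjusted p under 0.05 (ENSMUSG00000021967, chr14:57826234-57829296, plus strand). It had 86.4, 85.5, 82.1 and 81.1 TPM in control dishes and 76.9, 81.5, 71.3 and 76.6 TPM in exposed dishes. Exposed dish 2 lay just above the lowest control dish and the other exposed dishes below all controls. The difference was -0.13 ± 0.04 (adjusted p = 0.187). Mrpl24 (-0.06 ± 0.04), Mrpl53 (-0.08 ± 0.05), Mrpl37 (-0.03 ± 0.04) and Mrpl38 (-0.03 ± 0.04) had the next smallest p-values among lower large-subunit genes, each with overlapping dishes and an adjusted p of at least 0.468.

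Among the 29 Mrps genes, 24 had a positive difference (82.8%, all genes 63.7%). At an unadjusted p under 0.05, 4 were higher (13.8%, all genes 12.0%), and none of the 5 negative differences reached that p. Under the other scalings 18 or 19 had a positive difference. Those higher numbered 2 under median of ratios (6.90%, all genes 6.79%) and 1 with mitochondrial transcripts left out (3.45%, all genes 5.72%). Under upper quartile there were 0 (all genes 4.85%). Mrps15, the homologue of bacterial S15 (ENSMUSG00000028861, chr4:126046925-126055532, plus strand), an early binder of small-subunit rRNA in bacteria, had 77.8, 75.9, 76.9 and 72.8 TPM in control dishes. In exposed dishes it had 78.2, 81.7, 82.0 and 86.5 TPM. The groups did not overlap, although exposed dish 1 exceeded the highest control dish by less than 1 TPM, and the difference was 0.11 ± 0.04 (adjusted p = 0.184).

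Mrps25, a mitochondria-specific protein, had 85.8, 92.3, 87.4 and 92.5 TPM in control dishes and 101, 100, 93.0 and 94.0 TPM in exposed dishes. The groups were apart, exposed dishes 3 and 4 narrowly, with a difference of 0.12 ± 0.04 (adjusted p = 0.194). Exons of Nr2c2 (25.1 TPM) on the opposite strand overlap 69.8% of its exonic bases. Mrps27, a pentatricopeptide repeat protein that binds RNA, had 32.6, 32.3, 33.6 and 33.0 TPM in control dishes and 35.3, 33.8, 34.0 and 35.8 TPM in exposed dishes. All exposed dishes were above all control dishes, and the difference was 0.08 ± 0.03 (adjusted p = 0.292).

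Mrps33, a mitochondria-specific protein, had 67.9, 74.0, 69.1 and 73.9 TPM in control dishes and 77.9, 79.2, 75.1 and 74.0 TPM in exposed dishes. Exposed dish 4 lay level with the upper control dishes, so the groups overlapped (0.10 ± 0.04, adjusted p = 0.229). Mrps22, a mitochondria-specific protein whose gene is mutated in some human mitochondrial disease, had 47.6, 41.99, 43.5 and 43.5 TPM in control dishes and 50.4, 45.4, 48.7 and 45.4 TPM in exposed dishes. Control dish 1 lay within the exposed range, and the interval of the difference of 0.10 ± 0.05 includes 0.

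On the negative side of the small subunit, Mrps24 (-0.06 ± 0.07), Mrps6 (-0.03 ± 0.04), Mrps17 (-0.02 ± 0.04), Mrps18c (-0.03 ± 0.05) and Mrps26 (-0.01 ± 0.04) all had overlapping dishes and an adjusted p of at least 0.742. Mrps18a, Mrps18b and Mrps18c are paralogues related to bacterial S18. In the split by origin, Mrps18c was counted among genes with a bacterial homologue, and Mrps18a and Mrps18b among mitochondria-specific genes. The 3 paralogues are described here by level and difference. They stood at 76.6 ± 2.46, 118 ± 2.40 and 68.0 ± 2.21 TPM in control dishes. Their differences were 0.06 ± 0.04, 0.08 ± 0.04 and -0.03 ± 0.05, each with an interval that includes 0. Mrps18a and Mrps30, in spite of their names, encode proteins of the large subunit.

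**Figure D3:**
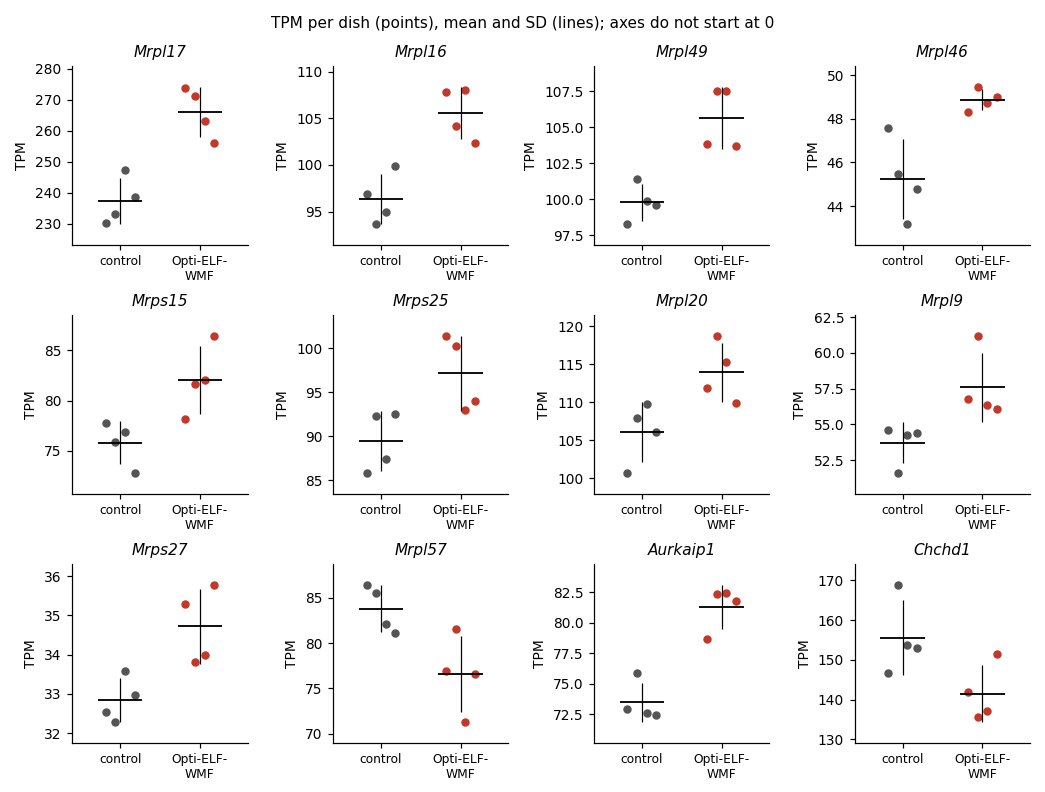
TPM per dish for the 9 members whose groups do not overlap, for Mrpl57, and for Aurkaip1 and Chchd1, small-subunit proteins with other names. Points are dishes, horizontal lines group means and vertical lines ± 1 SD, and the axes do not start at 0. The group means of Mrpl17 are 237 and 266 TPM and those of Mrpl57 are 83.8 and 76.6 TPM.

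Some members are known for a second role. Mrpl12, the stalk protein that also binds the mitochondrial RNA polymerase, had 139 ± 2.11 TPM in control and 143 ± 8.11 TPM in exposed dishes, a difference of 0.04 (95% interval -0.05 to 0.12). Mrpl58, a peptidyl-tRNA hydrolase that frees stalled ribosomes, had 70.4 ± 4.45 and 72.0 ± 4.91 TPM, a difference of 0.03 (-0.10 to 0.16) that turned to -0.0013 under upper-quartile scaling. Mrps36, later assigned to the 2-oxoglutarate dehydrogenase complex, had 85.2 ± 5.60 and 89.9 ± 2.78 TPM, a difference of 0.08 (-0.03 to 0.18).

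Of the genes at the ends of the abundance order other than Mrpl17, Mrpl52 differed by 0.001 ± 0.06, Mrpl55 by -0.004 ± 0.06 and Mrps21 by 0.02 ± 0.05, and Mrps23 stood at 122 TPM in both groups. Under the other scalings Mrpl52, Mrps21 and Mrps23 had negative differences, down to -0.033, -0.012 and -0.033 under upper-quartile scaling. Mrps31 (0.11 ± 0.05), Mrps30 (0.06 ± 0.05) and Mrpl1 (0.07 ± 0.05) were on the positive side without excluding 0. Across members, abundance and difference were nearly unrelated (Spearman's rho = -0.041, 78 genes). The 95% intervals of 75 members lay within 0.25 of 0 on the log2 scale, and the exceptions were Mrpl19, Mrpl47 and Mrps35.

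Summed over the family, the TPM was 6618, 6678, 6310 and 6574 in control dishes and 6936, 6852, 6582 and 6650 in exposed dishes. Exposed dishes 1 and 2 were the highest and control dish 3 the lowest, and the groups overlapped. The means were 6545 ± 162 and 6755 ± 167 TPM (SD, n = 4), a difference of 3.21%, or 0.654% and 0.675% of all TPM. Without control dish 3 the difference of 210 TPM became 132 TPM. Under the other scalings it was 105 TPM (median of ratios), 78.7 TPM (mitochondrial transcripts left out) or 54.5 TPM (upper quartile). The mean log2(TPM + 1) differed by 0.046 over all members, and by 0.024, 0.017 and 0.013 under those scalings in the same order. On the TPM scale it differed by 0.044 over Mrpl and by 0.050 over Mrps genes, and by 0.047 and 0.044 over genes with a bacterial homologue and mitochondria-specific genes. The ratio of summed Mrpl to summed Mrps TPM was 2.16 ± 0.023 in control and 2.15 ± 0.051 in exposed dishes.

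The RNA made inside mitochondria lay on the opposite side. The 15 tested transcripts of the mitochondrial genome were all lower in exposed dishes, with a mean difference of -0.40. All 37 listed transcripts of that genome together took 8.94 ± 0.34% of all TPM in control and 7.04 ± 0.76% in exposed dishes. mt-Rnr1, the 12S RNA of the small mitochondrial subunit, had 763, 684, 703 and 649 TPM in control dishes and 592, 409, 555 and 546 TPM in exposed dishes. Every exposed dish was below every control dish, with a difference of -0.42 ± 0.10 (adjusted p = 0.129). mt-Rnr2, the 16S RNA of the large subunit, had 689, 637, 683 and 603 TPM in control dishes and 547, 376, 511 and 522 TPM in exposed dishes, a difference of -0.43 ± 0.10 (adjusted p = 0.131). The groups were again apart and exposed dish 2 was the lowest for both RNAs. The libraries were selected for poly(A) RNA, so TPM of the rRNAs is not their full amount. In relation to summed mitochondrial transcripts, member TPM was 0.067 to 0.077 in control and 0.086 to 0.114 in exposed dishes, which did not overlap.

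**Figure D4:**
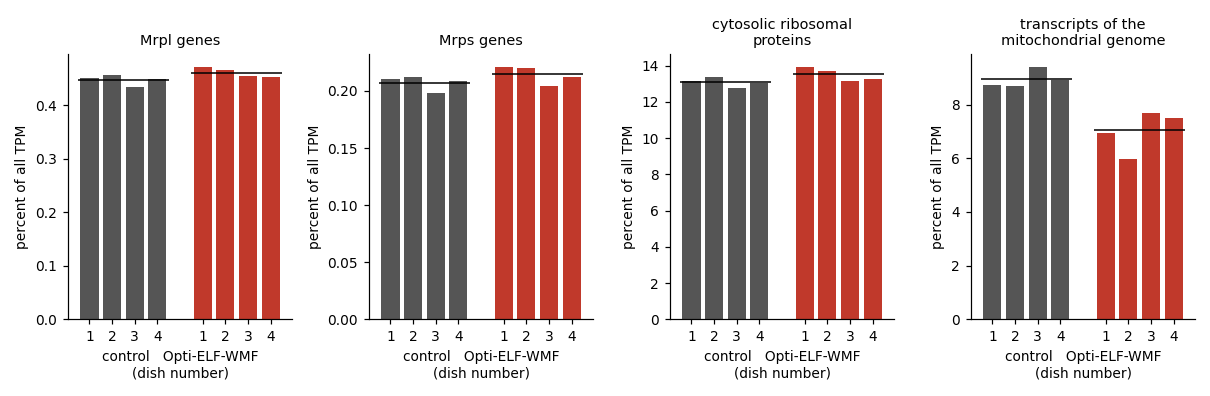
Percent of all TPM in each dish for Mrpl genes, Mrps genes, cytosolic ribosomal protein genes and transcripts of the mitochondrial genome, with lines at the group means and axes from 0. The ribosomal protein panels show overlapping groups, with family totals of 0.654% and 0.675%, while mitochondrial transcripts stand at 8.94% and 7.04% with no overlap.

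Because TPM is a share of a fixed total, a smaller share of mitochondrial transcripts means larger shares elsewhere. With other scalings the split of members changed. After median-of-ratios scaling 9 members were higher and 2 lower at an unadjusted p under 0.05, beside 6.79% and 5.52% of all genes. With the mitochondrial transcripts left out and TPM rescaled, the counts were 5 higher and 3 lower, beside 5.72% and 5.58%, and after upper-quartile scaling 3 and 3, beside 4.85% and 6.61%. Members with a positive difference numbered 52, 51 and 46 under these scalings. The median of all genes moved from 0.026 to 0.005, -0.002 and -0.005, and the members' median stayed 0.029 above it in each. Under all 4 scalings 46 members were higher and 16 lower, and the sign of the other 16 depended on the scaling. The dishes of Mrpl57 came apart, on the low side, under the 3 other scalings.

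**Figure D5:**
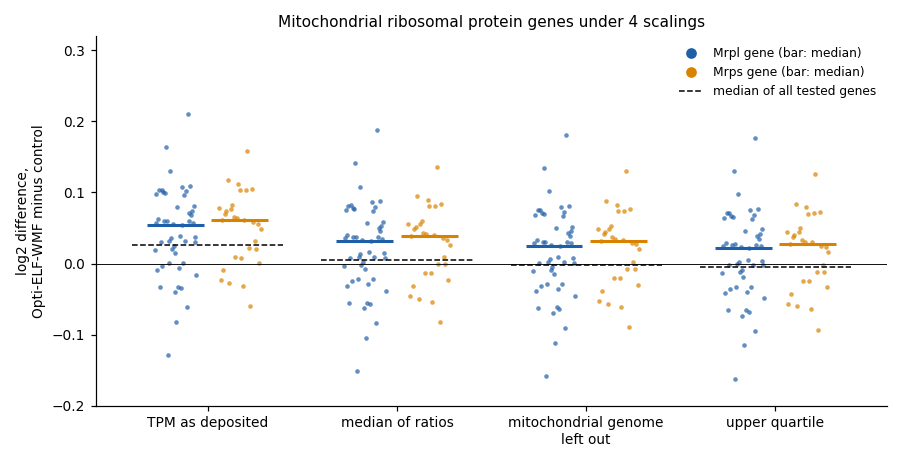
Log2 difference, Opti-ELF-WMF minus control, of each Mrpl (blue) and Mrps (orange) gene under the deposited TPM scale and 3 other scalings, with bars at subunit medians and a dashed line at the median of all tested genes. The whole cloud shifts down by about the same amount as the dashed line, from 0.026 to between 0.005 and -0.005.

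The cytosolic ribosomal proteins gave a reference from the other ribosome of the cell. 71 of 80 were positive, 26 with an unadjusted p under 0.05 (all genes 12.0%) and none lower, with a mean difference of 0.050. Under the other scalings 53 to 65 were positive. The counts were 7 higher and 1 lower (median of ratios), 12 and 2 (mitochondrial transcripts left out) or 7 and 2 (upper quartile). Of all genes, 6.79% were higher and 5.52% lower, 5.72% and 5.58%, or 4.85% and 6.61%, in the same order. Their summed TPM was 20.0 ± 0.19 times that of the members in control and 20.0 ± 0.07 times in exposed dishes.

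5 mitoribosomal proteins carry other names, and these were examined too. Aurkaip1, mS38 of the small subunit, had 73.0, 75.9, 72.6 and 72.5 TPM in control dishes and 78.7, 82.4, 82.4 and 81.8 TPM in exposed dishes. The groups did not overlap, with a difference of 0.14 ± 0.03 (adjusted p = 0.122). Chchd1, mS37 of the same subunit, had 147, 169, 154 and 153 TPM in control dishes and 142, 136, 137 and 151 TPM in exposed dishes. Exposed dish 4 overlapped the controls, and the difference was -0.13 ± 0.05 (adjusted p = 0.223). Dap3, a GTP-binding small-subunit protein first named for a role in cell death, differed by 0.07 ± 0.04. Gadd45gip1, which sits by the exit tunnel of the large subunit, differed by 0.08 ± 0.06, and Ptcd3, a pentatricopeptide repeat protein, by -0.005 ± 0.03. Of these 5 genes 1 was higher and 1 lower at an unadjusted p under 0.05, beside 12.0% and 3.65% of all genes.

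The list of translation factors held 16 tested genes, and not all of them act on the ribosome itself, Lrpprc being an example. Of the 16, 3 were higher (18.8%, all genes 12.0%) and 1 lower (all genes 3.65%) at an unadjusted p under 0.05. None had an adjusted p under 0.05. Under each of the other scalings none was higher (all genes 4.85% to 6.79%). Those lower numbered 1, or 2 under upper quartile (all genes 5.52% to 6.61%). Tufm, the elongation factor that brings tRNA, was at 164 ± 3.66 TPM in control and 173 ± 6.32 TPM in exposed dishes (difference 0.08 ± 0.03). Lrpprc, which stabilises mitochondrial mRNAs, had 49.9 ± 0.90 and 52.9 ± 2.25 TPM, and Mrrf, the ribosome recycling factor, had 15.3 ± 0.31 and 16.4 ± 0.55 TPM. Both were apart between the groups, Mrrf narrowly, with 15.59 TPM in the highest control and 15.61 TPM in the lowest exposed dish. In all, 2 of the 16 genes were apart on the higher side (12.5%, all genes 8.01%). On the lower side 1 was apart (all genes 1.86%). Guf1, a GTPase that acts on elongating ribosomes, had 17.6, 16.99, 16.9 and 17.1 TPM in control dishes and 15.3, 15.9, 16.2 and 15.01 TPM in exposed dishes. All its exposed dishes lay below all controls (-0.13 ± 0.04, adjusted p = 0.179). Mtif2 (-0.07 ± 0.04), the initiation factor, and Gfm2 (-0.08 ± 0.06), which acts in recycling, had overlapping dishes.

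Of 26 genes for assembly of the mitochondrial ribosome and modification of its rRNA, 14 were positive (53.8%, all genes 63.7%) and 12 negative. At an unadjusted p under 0.05, 2 were higher (7.69%, all genes 12.0%) and none lower (all genes 3.65%). Under the other scalings 10 to 12 were positive, with at most 1 higher (all genes 4.85% to 6.79%) and 1 lower (all genes 5.52% to 6.61%). Noa1, a GTPase needed for the small subunit, had 35.2 ± 1.38 TPM in control and 38.8 ± 2.44 TPM in exposed dishes, which did not overlap (0.14 ± 0.05, adjusted p = 0.218). Grsf1, an RNA-binding protein of mitochondrial RNA granules, had 68.6 ± 2.03 and 72.5 ± 1.27 TPM (0.08 ± 0.03). Mtg1, a GTPase of large-subunit assembly, differed by 0.13 ± 0.09. On the other side, Mtg2 (-0.08 ± 0.05), Mettl15 (-0.20 ± 0.13) and Ngrn (-0.06 ± 0.04) had overlapping dishes and adjusted p-values of at least 0.438. Mettl15, which methylates the 12S rRNA, was at only 4.28 TPM in control dishes. Mrm1, a methyltransferase of the 16S rRNA, had 5.90 to 6.67 TPM in control dishes and 6.13, 6.58, 32.9 and 6.79 TPM in exposed dishes. Its difference of 0.60 ± 0.43 rests on exposed dish 3, without which the mean difference over the 26 genes was -0.0029.

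Some members may share reads with other genes, so their TPM is uncertain. In GENCODE M21, 19 members had a transcript of another gene at 95% identity or more over at least 80% of that transcript, and 4 of these copies had a mean TPM of at least 1. Gm18736 matched Mrps10 at 97.9% identity and had 16.8 ± 1.51 TPM in control and 22.1 ± 1.97 TPM in exposed dishes, which did not overlap (0.37 ± 0.07, adjusted p = 0.122). Mrps10 itself had 23.1 ± 0.89 and 24.0 ± 2.25 TPM, a difference of 0.05 ± 0.06, and the sum of both was 39.9 ± 2.05 and 46.0 ± 3.93 TPM with overlapping dishes. How the reads divide between them was not tested. Mrpl48-ps stood at 22.5% of the TPM of Mrpl48 and Mrpl23-ps1 at 2.62% of that of Mrpl23, with differences of 0.34 ± 0.18 and 0.29 ± 0.13. The remaining copy, Nme3, overlaps Mrps34 on the same strand and had 24.8% of its TPM. Exons of 23 members overlap those of a gene with a mean of at least 1 TPM, 20 of them on the opposite strand. By share of the exonic bases of a member, the largest opposite-strand overlaps were those of Mrps25 with Nr2c2 (4590 bases) and of Mrps34 with Mapk8ip3 (63.4% of the exonic bases of Mrps34). Mrpl46 and Mrps11 overlap by 173 exonic bases on opposite strands of chromosome 7. On the same strand, where 5 members overlap such a gene, the largest share was 88.0% of Mrpl53, with Gm42688 (2.29 TPM). Urgcp (20.4 TPM) covers 15.4% of the exonic bases of Mrps24 on the same strand. The library kit keeps strand, and whether the counting used it is not given in the sources used here.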

How the data were processed

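RNA was sequenced by the authors from 8 dishes of AML12 cells (TruSeq Stranded mRNA, Illumina NovaSeq, paired-end reads). The submitters' processing notes name Trimmomatic 0.39, STAR 2.7.4a, RSEM 1.3.3 and the mouse build mm10. The gene annotation is not given in the sources used here. For each dish the authors deposited a table of TPM values for 55401 genes, scaled to a total of 1000000, so depth is unknown and no counting interval is given.

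A gene was tested where 4 or more dishes reached 1 TPM, which left 12122 genes. Differences in log2(TPM + 1) were tested with limma 3.58.1 (eBayes with trend, two-sided) in R 4.3.3, using all 8 dishes and Benjamini-Hochberg adjustment over all tested genes. Differences are on the log2(TPM + 1) scale, which understates changes of low genes. Lists were described by counts beside those of all genes, with no test over a list. The design foresaw read counts as another case. The script was tested on simulated data.

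Gene models came from GENCODE M21 (GRCm38), which matched all 78 members. Near-identical transcripts were found with blastn 2.17.0, and promoters were taken from RefSeq (GRCm38.p6). Members and lists were chosen with earlier results of these data known. Named were, per subunit, the 5 smallest p-values in each direction and the 2 highest and 2 lowest levels, with members of known second roles, the S18 paralogues, proteins under other names, the 3 smallest p-values in each direction among translation and assembly factors, and pseudogene rows with a mean TPM of at least 1. The mitochondrial rRNAs, Gm18736, Nme3, Mrm1, Nr2c2, Mapk8ip3, Mrps10, Mrps11, Mrps34, Mrpl9, Mrpl13, Mrpl19, Mrpl20, Mrpl23, Mrpl33, Mrpl47, Mrpl48, Mrpl51 and Mrps35 were named after their values were seen. Gm42688 and Urgcp were also named after their values were seen. Of 17 listed translation factors 16 were found. Alternatives covered the pseudocount (0.1), the filter, 3 scalings, the trend, a replicate block and leaving out each dish. Dishes of the same replicate number shared little deviation from their group means, with correlations from -0.042 to 0.026. Such correlations cannot tell whether the dishes were handled as pairs.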

Additional observations from a re-analysis of the deposited data

Results flagged for a closer look

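A dish stood far from the other 3 of its group in 8 of 118 groups of 4 dishes examined, where chance alone flags about 1 group in 20. Mrps36 was at 76.8 TPM in control dish 3, against 87.3 to 88.6 TPM in the other control dishes. Gadd45gip1 was at 14.7 TPM in the same dish, against 17.6 to 17.9 TPM. Aurkaip1 was at 75.9 TPM in control dish 2, against 72.5 to 73.0 TPM, and at 78.7 TPM in exposed dish 1, against 81.8 to 82.4 TPM. Ptcd3 was at 101.9 TPM in exposed dish 3, against 98.2 to 98.4 TPM. Lrpprc was at 56.3 TPM in exposed dish 2, against 51.6 to 52.0 TPM. Mtg1 was at 28.4 TPM in control dish 1, against 23.8 to 24.4 TPM. Mrm1, included after its values were seen, was at 32.9 TPM in exposed dish 3, against 6.13 to 6.79 TPM.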

How the results depend on the processing

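No member passed an adjusted p of 0.05 in limma under any setting tried, and the smallest adjusted p of a member was 0.109, with a TPM of at least 1 required in every dish. Of all genes, 1 passed with that filter, 1 after upper-quartile scaling, 1 after median-of-ratios scaling and 1 without the trend, and 0 to 6 passed when 1 dish was left out, with 6 without exposed dish 2, 2 without control dish 2 and 1 without control dish 3. Members higher at an unadjusted p under 0.05 numbered 3 after upper-quartile scaling, 9 after median-of-ratios scaling and 5 without mitochondrial transcripts. Those lower numbered 3, 2 and 3. Of all genes, 4.85%, 6.79% and 5.72% were higher and 6.61%, 5.52% and 5.58% lower, in the same order. Leaving out a dish gave 11 to 18 higher and 1 to 3 lower members, with 3 lower without control dish 3 and 2 without control dish 2. In these fits 8.85% to 13.5% of all genes were higher and 2.76% to 4.29% lower. Upper-quartile scaling took the mean difference of Mrpl genes to 0.010, of proteins under other names to -0.0024, of translation factors to 0.0025 and of cytosolic ribosomal proteins to 0.016, and without mitochondrial transcripts proteins under other names stood at 0.0016 and translation factors at 0.0063. The mean difference of all members ran from 0.029 to 0.058 over the dishes left out, lowest without control dish 3, and its summed TPM difference from 132 to 268 TPM. That of assembly factors ran from -0.0029 to 0.041, below 0 without exposed dish 3. Of 37 genes, the members named for their p with the proteins under other names and the named factors, 32 kept their sign in every setting. Of the members named for level or second role, Mrpl58, Mrps21, Mrps23 and Mrpl52 changed sign under another scaling. When a dish was left out, the difference ran from -0.051 to 0.012 for Mrps18c and from -0.062 to 0.0064 for Mrps6 (above 0 without exposed dish 3), and from -0.10 to 0.0096 for Mrps24 and -0.020 to 0.014 for Ptcd3 (above 0 without control dish 2). For Mrps26 it ran from -0.041 to 0.016, and was above 0 without control dish 1, exposed dish 3 (0.0030) or exposed dish 4 (0.0067). With the replicate number as a block, 15 members were higher and 2 lower at an unadjusted p under 0.05. Of the 12122 tested genes, 11.8% were higher and 459 genes were lower, and none passed the adjusted threshold. Whether the numbers pair the dishes is not known. The cause of these shifts was not tested. TPM carries no depth, so counting error could not be separated from the spread between dishes.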
